A study of Cyprinus carpio with 9 samples.

Results

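The liver transcriptome of adult common carp (Cyprinus carpio) on a mixed diet of earthworm and duckweed was set against that of carp on earthworm alone. The mixed diet had 3 libraries and the earthworm diet had 3, of the 9 libraries of the series, and the 3 libraries of carp fed duckweed alone were not used. The series' design text speaks of duplicates, whereas the labels give 3 samples per diet. Mixed-diet fish received earthworm, an animal food, and duckweed, a small floating water plant, at 1:1, and the other fish received earthworm. Per the labels, all fish were adults of 492.6 ± 30 g, assigned at random to groups of 90 with 3 repetitions each, and livers were taken after a 24 h fast under MS-222, a fish anaesthetic. Whether each library holds 1 fish or a pool is not in the labels. The p-values therefore cover the spread among these libraries, part of which may be technical. Genes at 1 FPKM or more (fragments per kilobase of gene model and scaled to the library's reads) in at least 2 of the 6 libraries were kept, which left 21840 of the 42997 gene IDs.

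The liver makes most plasma proteins, stores glycogen and handles the fats, sugars and amino acids that reach it from the gut. A liver library therefore typically holds a few transcripts of secreted proteins at very high levels beside many transcripts at low levels. Carp eat both animal and plant food, and the comparison addressed what replacing part of an animal food with a plant does to liver gene expression. The files give gene IDs without names, and a search of the carp reference table found 0 of the 42997 IDs. No role can therefore be attached to the IDs below, and the labelled tissue could not be checked against liver marker genes.

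The filter set which genes could be compared, and library 3 bore on it. The last gene inside it had a second-highest value of 1.00018 FPKM and the first outside had 0.999824 FPKM. Of the 21157 genes left out, 511 were listed at 0 in all 6 libraries. Of those kept, 11656 reached 1 FPKM in every library, 553 reached it in mixed-diet libraries only and 164 in earthworm libraries only. The 553 were not split by whether library 3 was needed, so 553 against 164 is not a comparison of the diets. All counts of the filter use FPKM as deposited. Mixed-diet library 3 and a single other library carried 2165 of the genes through, and without library 3 the same rule would have kept 19675.

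Mixed-diet library 3 did not have the profile of the other 5 libraries. Totals recovered from the steps between low FPKM values were 11350056, 10961886 and 10631569 reads in mixed-diet libraries 1 to 3, against 9915585 to 11630872 reads in earthworm libraries. Library 3 had 26969 genes at 1 FPKM or more, against 16802 and 17679 in mixed-diet libraries 1 and 2 and 15059 to 20051 in earthworm libraries. These counts use FPKM as deposited, where a gene's value rises if other genes take fewer of the reads. Across the 21840 genes the log2 values of library 3 correlated with the other 5 libraries at 0.45 to 0.50. Mixed-diet libraries 1 and 2 correlated with each other at 0.93 and with earthworm libraries at 0.90 to 0.93. Earthworm libraries correlated with each other at 0.87 to 0.92. These correlations run across genes, which are not independent replicates, and carry no p-value. What set library 3 apart was not tested, and the comparisons below are given with it and with mixed-diet libraries 1 and 2 alone.

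The most abundant transcripts showed the difference most plainly. The 50 genes with the highest mean FPKM on earthworm, a set chosen from the earthworm values, held 59.3% and 57.5% of summed FPKM in libraries 1 and 2 of the mixed diet, against 61.5%, 58.4% and 55.8% in earthworm libraries 1 to 3. They held 2.24% in mixed-diet library 3. Mixed-diet libraries 1 and 2 thus lay inside the earthworm range and library 3 far below it. Their mean of 58.4% ± 1.25 (SD, n = 2) was 0.19 points below the earthworm mean of 58.6% ± 2.84 (SD, n = 3), a difference smaller than the SDs (exact permutation test, two-sided, p = 1). With all 3 mixed-diet libraries the mean was 39.7% ± 32.4 (SD, n = 3) and the difference was -18.9 points, with an exact permutation p of 0.5. No p below 0.1 can be reached with 3 against 3 or 2 against 3 libraries. The set was also chosen from the earthworm libraries that the test compares. These p-values are therefore descriptive and decide nothing about diet. In recovered reads the share of library 3 was 0.966% (exact 95% binomial interval 0.96 to 0.971%, counting error only). In bulk liver RNA, fewer cells of a type and less RNA per cell cannot be told apart.

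As a set, these 50 transcripts kept high levels in mixed-diet libraries 1 and 2. Their median level was 3647 and 4752 FPKM there, against 4637, 5097 and 2936 FPKM in earthworm libraries 1 to 3, and 10.1 FPKM in mixed-diet library 3. None of the 50 was under 100 FPKM in mixed-diet libraries 1 and 2, and 1 was in earthworm library 3. In mixed-diet library 3, 40 of the 50 were under 100 FPKM. Single genes differed in both directions, and without library 3 the log2 fold changes of the 50 ran from -2.16 to 1.25. None of these differences passed the test, with a lowest adjusted p of 0.915 (limma). The most abundant gene on earthworm, CAFS_CommonC_G_016105, was at 54895 and 61900 FPKM in libraries 1 and 2 of the mixed diet, against 88748, 57522 and 86383 FPKM in earthworm libraries. It was at 96.5 FPKM in mixed-diet library 3, and the groups overlapped with and without that library. The second, CAFS_CommonC_G_068807, was at 96004 and 85565 FPKM in libraries 1 and 2 of the mixed diet, against 66771, 68235 and 55748 FPKM in earthworm libraries, and at 41.7 FPKM in mixed-diet library 3. Here mixed-diet libraries 1 and 2 lay above all 3 earthworm libraries, but the log2 fold change of 0.61 (SE 0.37) did not pass the test (limma, adjusted p = 0.943). With library 3 it was -3.61 (SE 3.65, limma, adjusted p = 0.999).

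**Figure D1:**
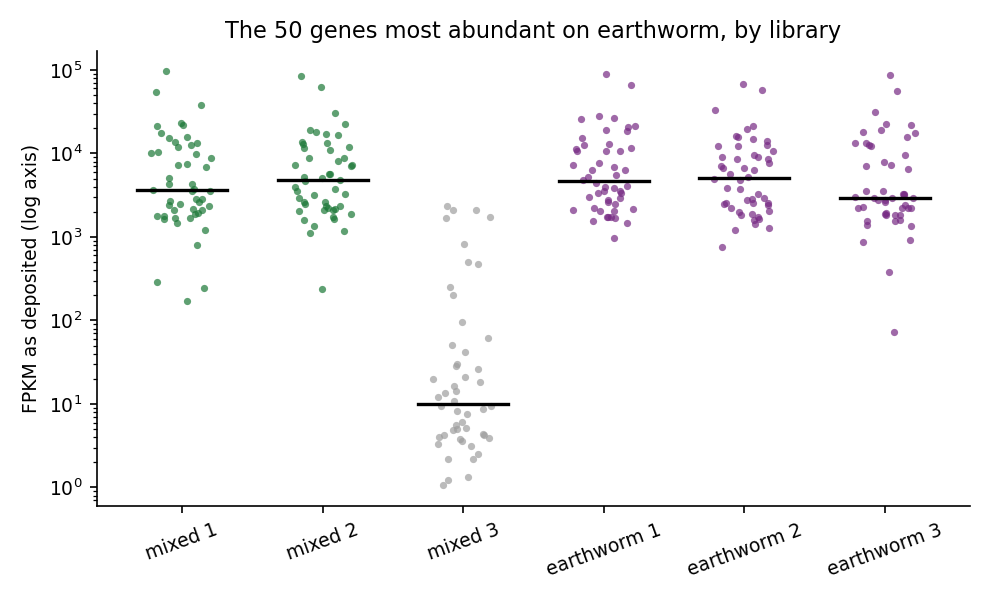
FPKM on a log axis of the 50 genes with the highest mean on earthworm, 1 point per gene and library, with a line at each library's median. Mixed-diet libraries 1 and 2 have medians of 3647 and 4752 FPKM, the earthworm libraries 2936 to 5097 FPKM, and mixed-diet library 3 has 10.1 FPKM.

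Few of the most abundant genes of mixed-diet library 3 were among those most abundant on earthworm. Of its 50 highest genes, 5 were in the earthworm set of 50, against 39 and 43 in mixed-diet libraries 1 and 2. The highest gene of library 3, CAFS_CommonC_G_021668, was at 14940 FPKM there. It was at 7.56 and 31.4 FPKM in libraries 1 and 2 of the mixed diet and at 51.4, 67.4 and 52.4 FPKM in earthworm libraries. The next, CAFS_CommonC_G_012009, was at 10670 FPKM there, against 474 and 619 FPKM in libraries 1 and 2 of the mixed diet and 632 to 705 FPKM in earthworm libraries. Of its 50 most abundant genes, 29 were higher in it than in each of the other 5 libraries. These 50 were chosen from its own values, which favours such a count. Levels in this paragraph are FPKM as deposited, which scaling would divide by 2.40 in library 3 and by 0.667 to 1.06 elsewhere. As a set these 50 were abundant everywhere, with a median of 1505 FPKM in library 3 and library medians of 913 to 1187 FPKM in the other 5. Divided by the scaling factors, the median in library 3 would lie below those in the other 5. They made up 20.2% of summed FPKM in library 3 and 4.57 to 6.04% in the others. Library 3 also had reads in 2381 genes listed at 0 in the other 5 libraries, of which 42 reached 10 FPKM, up to 160 FPKM. Conversely, of 1980 genes at 10 FPKM or more in each of the other 5 libraries, 202 were under 1 FPKM in library 3 and 25 were listed at 0.

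Without library 3, the numbers of genes 4-fold apart overlapped between pairs of libraries of one diet and pairs across the diets. Among 3190 genes with a mean of 10 or more scaled FPKM, 117 were at least 4-fold apart between mixed-diet libraries 1 and 2. Between a mixed-diet and an earthworm library the number ran from 95 to 289, and between earthworm libraries it was 82, 240 and 294. Earthworm library 2 differed from mixed-diet libraries 1 and 2 in 102 and 95 genes, fewer than those 2 mixed-diet libraries differed from each other. The 3 highest of these numbers, 294, 289 and 240, all involved earthworm library 3. In FPKM as deposited the numbers were 121 between the mixed-diet libraries, 93 to 265 between diets, and 78, 221 and 234 among earthworm libraries, so there the highest number was between diets and not between earthworm libraries. Against mixed-diet library 3 each of the other 5 libraries differed 4-fold in 37.7 to 41.4% of the 3190 genes.

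**Figure D2:**
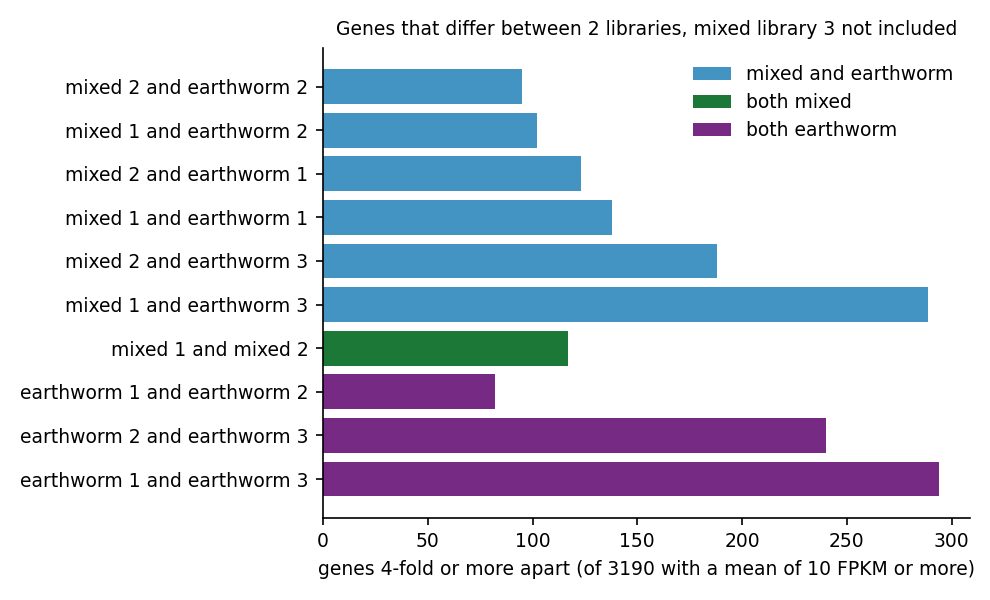
Number of genes at least 4-fold apart, on the log2(scaled FPKM + 1) scale, between each pair of the 5 libraries without mixed-diet library 3, of 3190 genes with a mean of 10 scaled FPKM or more. Pairs across diets run from 95 to 289 genes, the pair of mixed-diet libraries has 117 and pairs of earthworm libraries have 82 to 294.

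No gene passed the test for a difference between the diets. For each gene, limma compared the diets on log2(scaled FPKM + 1), where scaling put the libraries on a common level, with Benjamini-Hochberg adjustment over the 21840 genes. With mixed-diet libraries 1 and 2 against the 3 earthworm libraries, 0 genes (0%) were past an adjusted p of 0.05, and the smallest adjusted p was 0.372. An unadjusted p under 0.05 was found for 1161 genes, 5.32% of those tested. Of these, 683 (3.13%) were higher on the mixed diet and 478 (2.19%) lower, while FPKM as deposited gave 366 higher and 520 lower. With all 6 libraries, limma again called 0 genes, with a smallest adjusted p of 0.999. There 507 genes (2.32%) had an unadjusted p under 0.05, 245 (1.12%) higher and 262 (1.2%) lower, while FPKM as deposited gave 225 and 100. limma-voom on the recovered reads called 0 genes in both fits, with 1037 genes at an unadjusted p under 0.05 without library 3 and 490 with it. If no gene differed, an unadjusted p under 0.05 would be given to about 1092 genes, or 5%. The counts were therefore near that number without library 3 and below it with library 3.

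**Figure D3:**
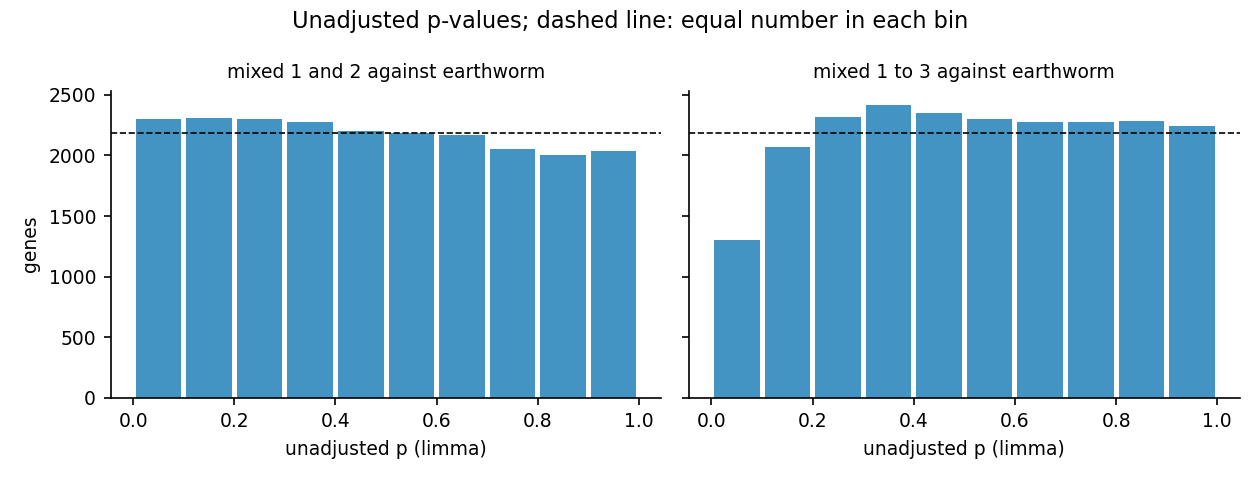
Number of genes in 10 equal bins of unadjusted limma p-values, for mixed-diet libraries 1 and 2 (left) and 1 to 3 (right) against the 3 earthworm libraries, with a dashed line at an equal number per bar. The lowest bar, p under 0.1, holds 2303 genes on the left and 1300 on the right.

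Large fold changes were unevenly split between the directions in the fit with library 3. Fold changes of 4-fold or more were found for 39 genes higher and 25 lower without library 3, and for 23 higher and 309 lower with it. The 309 and 23 genes were chosen by the fit of all 6 libraries. The place of mixed-diet libraries 1, 2 and 3 in them therefore follows in part from the choice. It is given as a description, as are the medians without library 3. Of the 309, library 3 lay below every earthworm library in 305, against 38.1% of all genes tested, and of the 23 it lay above every one in 20, against 29.9%. Mixed-diet libraries 1 and 2 lay below every earthworm library in 76 of the 309 and above in 13, and in the 23 they lay above in 11 and below in 1. Over all genes tested they lay below in 8.79% and above in 13.4%. Without library 3 the median log2 fold change was -0.32 in the 309 genes and 1.16 in the 23.

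Abundant genes had lower fold changes in the fit with library 3 and not in the fit without it. Without it, the 106 genes averaging 1000 scaled FPKM or more had a median log2 fold change of 0.19, and the 464 genes from 100 to 1000 also had 0.19. The 2638 genes from 10 to 100 had 0.13, and the median of all genes was 0.07. In FPKM as deposited these medians were 0.10, 0.10, 0.05 and -0.002. With library 3, the same classes held 113, 484 and 3154 genes and had medians of -2.65, -0.92 and -0.18, against 0.006 for all genes (0.33 in FPKM as deposited, where the 3 classes had -2.26, -0.47 and 0.24). The spread between libraries of a diet went the same way. For genes at 1000 scaled FPKM or more, the median SD on the log2 scale was 5.04 over the 3 mixed-diet libraries and 0.47 over the earthworm libraries. It was 0.21 over mixed-diet libraries 1 and 2 alone. The median of SDs over 2 libraries tends to be lower than that over 3, so 0.21 and 0.47 are not directly comparable.

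**Figure D4:**
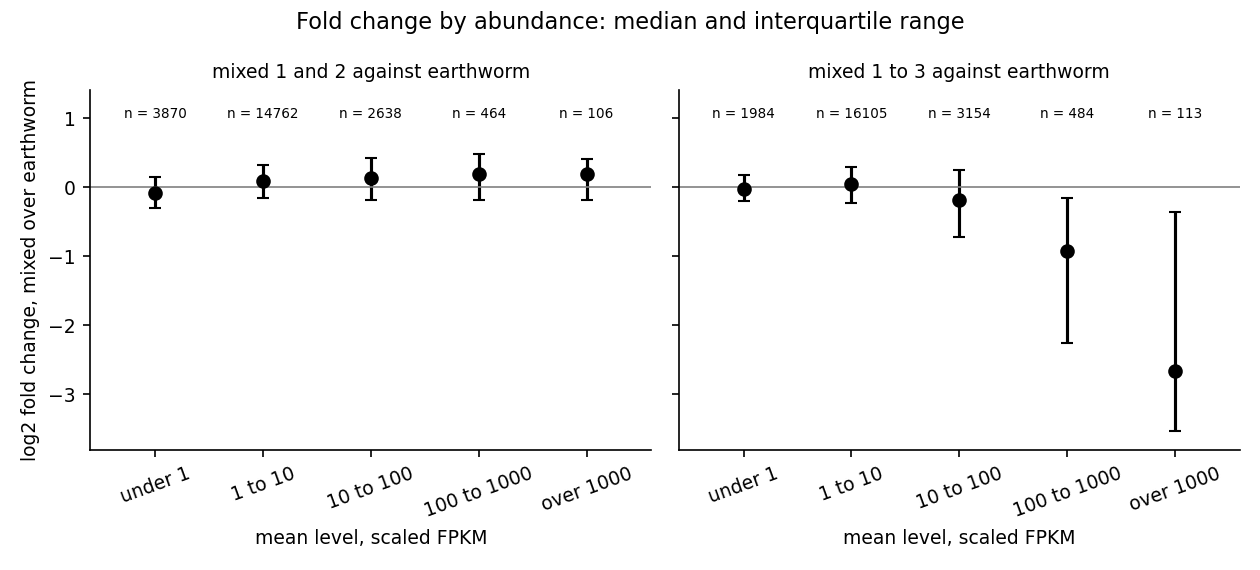
Median log2 fold change (points) and interquartile range (bars) of mixed diet over earthworm by mean level, for mixed-diet libraries 1 and 2 (left) and 1 to 3 (right). On the left every median lies between -0.09 and 0.19, and on the right genes above 1000 scaled FPKM have a median of -2.65.

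Genes whose libraries did not overlap between the diets were counted as a description. With so few libraries many genes separate in this way even if no gene differs, so the counts do not measure an effect of diet. Mixed-diet libraries 1 and 2 both lay above all 3 earthworm libraries in 2924 of 21840 genes (13.4%) and both below in 1919 (8.79%). In FPKM as deposited the balance was the other way, with 1665 above and 2250 below. With all 3 mixed-diet libraries, 937 genes (4.29%) lay above and 732 (3.35%) below, against 1299 and 364 in FPKM as deposited. Mixed-diet library 3 lay on either side in these genes. In the 2924 genes it was above all earthworm libraries in 35.6% and below all in 40.0%, and in the 1919 genes it was above in 46.6% and below in 34.6%. Over all tested genes it was above in 29.9% and below in 38.1% (69.0% and 12.2% in FPKM as deposited). Of the 50 genes most abundant on earthworm, 7 lay above and 4 below with mixed-diet libraries 1 and 2 (8 and 8 in FPKM as deposited), and their median log2 fold change was 0.15, with 1 gene at an unadjusted p under 0.05. With all 3 mixed-diet libraries, 0 of the 50 lay above and 4 below, and their median was -3.47.

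Large gaps between the diets were rare. A gap of 2-fold or more, from the lowest library of one diet to the highest of the other on the log2(scaled FPKM + 1) scale, was found for 39 genes higher and 18 lower in mixed-diet libraries 1 and 2, of 21840 tested, and for 35 and 34 in FPKM as deposited. A gap of 4-fold was found for 4 higher and 2 lower (2 and 2 in FPKM as deposited), and of 8-fold for 0. In these 6 genes library 3 was above all earthworm libraries in 1, within their range in 1 and below all of them in 4. With all 3 mixed-diet libraries a 2-fold gap was found for 6 genes on the higher side and 10 on the lower side. Without library 3, genes at 0 throughout one diet and at 1 FPKM or more throughout the other were also rare. A single gene was listed at 0 in all earthworm libraries and at 1 FPKM or more in mixed-diet libraries 1 and 2. It was listed at 0 in library 3. Its value in the lower of libraries 1 and 2 was 1.29 FPKM, from at least 3 reads. Reads recovered from 2 libraries alone can come out too few. A single gene was listed at 0 in mixed-diet libraries 1 and 2 and at 1 FPKM or more in every earthworm library, at 2.31 FPKM or more there, and was also listed at 0 in library 3. A count of 0 allows up to 3 reads, or 0.258 to 0.303 CPM (a library's reads relative to its own total) across the 6 libraries.

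The gene with the widest gap on the higher side was CAFS_CommonC_G_090852. It had 611 FPKM in mixed-diet library 1 and 2265 FPKM in library 2, from 2268 and 8120 reads, against 70.6, 49.4 and 47.6 FPKM in earthworm libraries, from 176 to 229 reads. Both mixed-diet libraries were thus far above the earthworm libraries, and they also differed widely from each other. Mixed-diet library 3 was at 0.575 FPKM, below every earthworm library. The log2 fold change was 4.49 (SE 0.58, limma, adjusted p = 0.372) without library 3 and 1.07 (SE 2.60, adjusted p = 0.999) with it.

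CAFS_CommonC_G_047194 varied far less within each diet. In mixed-diet libraries 1 and 2 it had 51.2 and 43.3 FPKM, against 7.06, 5.78 and 7.23 FPKM in earthworm libraries. Mixed-diet library 3 was at 23.4 FPKM, above the earthworm libraries as deposited, but at 9.75 after scaling, inside their scaled range of 6.56 to 10.6. The log2 fold change was 2.73 (SE 0.36, limma, adjusted p = 0.372) without library 3 and 1.92 (SE 0.72, adjusted p = 0.999) with it. The other 2 genes with a 4-fold gap, named after their values were seen, were CAFS_CommonC_G_019160 and CAFS_CommonC_G_014543. The first was at 19.6 and 22.3 FPKM in libraries 1 and 2 of the mixed diet, against 1.92 to 5.35 FPKM on earthworm, and at 1.57 FPKM in mixed-diet library 3, below every earthworm library. The second had 3.94, 18.2 and 1.53 FPKM in libraries 1 to 3 of the mixed diet, and was listed at 0 in earthworm libraries 1 and 2 and at 0.35 FPKM in earthworm library 3. Its gene model is short, at 246 bases, so the lower of these values rest on few reads.

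On the lower side, CAFS_CommonC_G_001333 was lower in all 3 mixed-diet libraries. It had 12.4, 12.1 and 0 FPKM in mixed-diet libraries 1 to 3, from 90, 85 and 0 reads, against 162, 88.1 and 185 FPKM in earthworm libraries, from 616 to 1378 reads. Both fits placed it on the same side, but they share 5 libraries, and diets that do not overlap were part of the rule that named it. Library 3 lay below all earthworm libraries in 38.1% of all genes tested. Its log2 fold change was -3.31 (SE 0.45, limma, adjusted p = 0.372) without library 3 and -4.68 (SE 1.12, adjusted p = 0.999) with it. CAFS_CommonC_G_045358, also with a 4-fold gap and named after its values were seen, had 0.52, 0.36 and 0 FPKM in mixed-diet libraries 1 to 3, against 6.80, 9.28 and 36.0 FPKM in earthworm libraries. Its gene model has 504 bases, so its mixed-diet values rest on few reads.

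CAFS_CommonC_G_001246 went opposite ways within the mixed diet. It was at 10.3 and 7.91 FPKM in libraries 1 and 2 of the mixed diet, against 49.8, 29.7 and 40.1 FPKM in earthworm libraries, and at 507 FPKM in mixed-diet library 3. Libraries 1 and 2 were thus below every earthworm library and library 3 above every one. The log2 fold change was -1.91 (SE 0.44, limma, adjusted p = 0.915) without library 3 and -0.58 (SE 1.16, adjusted p = 0.999) with it. CAFS_CommonC_G_040125 was low in all 3 mixed-diet libraries but by unequal amounts. It was at 1.43, 42.9 and 0.22 FPKM there, against 88.9, 100.2 and 172 FPKM in earthworm libraries. Its log2 fold change was -3.43 (SE 1.09, limma, adjusted p = 0.915) without library 3 and -4.65 (SE 1.30, adjusted p = 0.999) with it. Leaving mixed-diet library 2 out of the 6 gave -6.31, with an unadjusted limma p of 3.7e-05 and an adjusted p of 0.803.

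Among genes with a mean of 10 scaled FPKM or more, a pair had the smallest p of those higher in all 3 mixed-diet libraries. Both reached that mean only through mixed-diet libraries. Scaled earthworm values were 2.98 to 7.84 in CAFS_CommonC_G_080307 and 3.88 to 6.27 in CAFS_CommonC_G_025959. CAFS_CommonC_G_080307 had 13.0, 15.4 and 41.5 FPKM in mixed-diet libraries 1 to 3, against 5.23, 4.90 and 3.16 FPKM in earthworm libraries. After scaling its mixed-diet values were 16.6, 18.0 and 17.3, so library 3 lay between the other mixed-diet libraries in this gene. Its log2 fold change was 1.57 (SE 0.39, limma, adjusted p = 0.915) without library 3 and 1.58 (SE 0.42, adjusted p = 0.999) with it. CAFS_CommonC_G_025959 had 10.7, 12.5 and 182 FPKM in mixed-diet libraries 1 to 3, against 2.59, 5.52 and 4.77 FPKM in earthworm libraries. Libraries 1 and 2 were close to each other and library 3 was far above them. Its log2 fold change was 1.38 (SE 0.33, limma, adjusted p = 0.915) without library 3 and 2.17 (SE 0.68, adjusted p = 0.999) with it.

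**Figure D5:**
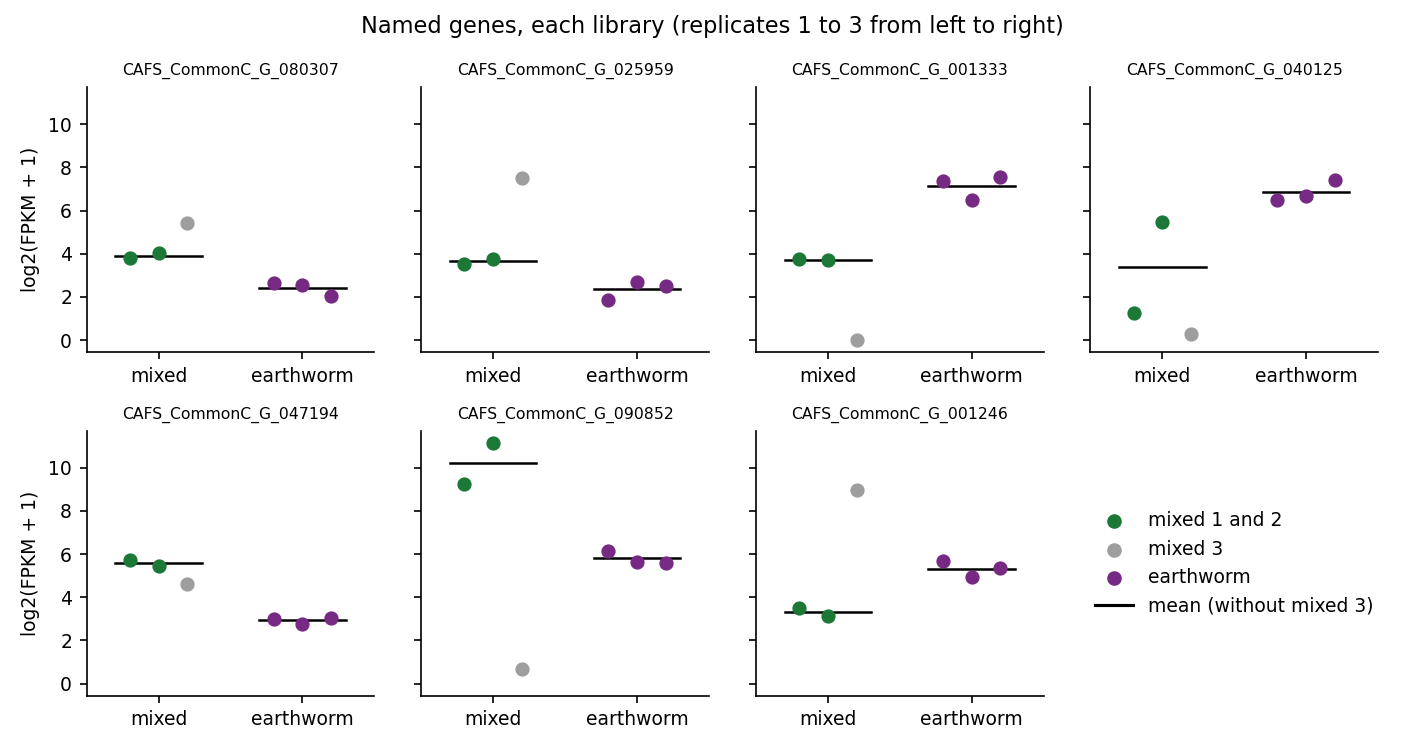
log2(FPKM + 1), as deposited, of the 7 genes chosen by rule, 1 point per library, mixed diet left and earthworm right, with lines at the means without mixed-diet library 3. In CAFS_CommonC_G_090852 and CAFS_CommonC_G_001246 mixed-diet library 3 (grey) lies on the other side of the earthworm libraries from mixed-diet libraries 1 and 2.

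The length of the gene models was recovered from the FPKM steps and is given without a test. Its median was 1928 bases in genes above and 2124 bases in genes below all earthworm libraries in mixed-diet libraries 1 and 2, against 2032 bases in all genes tested. For mixed-diet library 3 the medians were 2208 bases in genes above and 1943 bases in genes below all earthworm libraries.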

How the data were processed

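Each library is a deposited table of 42997 gene IDs with 1 value in FPKM, per the file headers, computed by the authors. Per the submitters' processing notes, HTSeq 0.6.0 was among the tools. Aligner, genome build, annotation and strandedness are not given in the sources used, so reads of near-identical duplicated genes, overlapping genes and antisense genes cannot be told apart. FPKM depends on the share of reads that other genes take.

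Library totals, gene lengths and whole reads were recovered from the steps between low FPKM values (lengths of 60 to 40000 bases, tolerance 0.0001 reads). The shortest length that fitted was taken, so genes seen in few libraries can have too short a length and too few reads. A length was found for 42485 genes, and recovered reads summed to 99.49 to 99.87% of each total. Chi-square per degree of freedom between libraries of a diet was at least 41.9, so none was counted as a copy.

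Scaling factors came from the trimmed mean of M values on recovered reads (ratio trim 30%, level trim 5%), computed over the libraries of each fit, and each FPKM was divided by its library's factor. The factors were 0.667 to 1.06 in 5 libraries and 2.40 in mixed-diet library 3, and 0.818 to 1.26 in the fit of 5 libraries. limma 3.58.1 in R 4.3.3 was fitted to log2(scaled FPKM + 1), with trend and robust options and two-sided tests, a scale that understates changes of low genes. Every log2 fold change is mixed diet over earthworm. Single values were compared by exact permutation tests over libraries, two-sided. The procedure was also run on simulated data, and the outcome is not given here. For the fits, simulated levels came from the 5 libraries other than mixed-diet library 3. A library of unlike profile was therefore not covered.

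Named genes were the 2 of smallest p in each direction and fit, among those at a mean of 10 scaled FPKM or more whose diets did not overlap, since none passed, plus the 2 most abundant on earthworm and the 2 most abundant in mixed-diet library 3. A gene could reach the mean of 10 scaled FPKM through the diet where it is high. CAFS_CommonC_G_047194, CAFS_CommonC_G_080307 and CAFS_CommonC_G_025959 did so through the mixed diet. CAFS_CommonC_G_001246, in the fit of 5 libraries, and CAFS_CommonC_G_001333, in the fit of 6, did so through the earthworm diet. The rule, the genes compared and the groups were chosen with earlier results of these data known. Alternatives were other scalings, filters and a pseudocount of 0.1, limma-voom, no robust option, the replicate number as a block, and each library left out. No sequence is shown because the IDs matched no reference entry.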

Additional observations from a re-analysis of the deposited data

How the results depend on the processing

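The number of genes called stayed at 0 in both fits under every alternative. In the fit without library 3, the smallest adjusted limma p of any gene was 0.372. It became 0.0607 without earthworm library 2, 0.0782 in FPKM as deposited and 0.751 without earthworm library 1. With 6 libraries, the 507 genes at an unadjusted p under 0.05 became 325 in FPKM as deposited. They became 362 to 1161 with each library left out (859 without mixed-diet library 1 and 1161 without library 3). Without library 3, the 1161 became 2885 with no filter, over 42486 genes, and 731 to 1490 with each library left out (731 without mixed-diet library 2). With no filter, genes whose diets did not overlap numbered 2823 with 6 libraries and 7768 without library 3, where more genes were counted. The difference in the share of the 50 most abundant genes without library 3 turned to 0.15 points for each library's own 50 genes and to 0.42 points in recovered reads, and lay between -1.56 and 1.27 points with each library left out. With all 6 libraries it lay between -28.7 and -0.19 points with each library left out, at -0.19 without library 3. The 7 genes named by smallest p kept their direction in all 14 alternatives of the fit that named them, and the lowest adjusted p in any was 0.0782. The kept direction is no test, since these genes were chosen for diets that did not overlap. Leaving out a library could hardly reverse them, and changing the filter or the robust option leaves a fold change as it is. A filter of 1 FPKM in 2 of the 5 libraries, chosen after seeing the data, gave 1103 genes at an unadjusted p under 0.05.

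The replicate numbers were not treated as pairs. Deviations of same-numbered libraries from their diet's mean correlated at 0.04, -0.02 and 0.08 with 6 libraries, and not every library correlated best with its own number. With the replicate number as a block limma called 0 genes in both fits, with 491 genes at an unadjusted p under 0.05 with 6 libraries and 1387 without library 3. Depth, 9915585 to 11630872 reads per library, limits genes near 1 FPKM, and the number of libraries limits every test.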
